A study of Mus musculus with 17 samples.

Results

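The genes described here are 44 components of the DNA replication machinery, found by symbol among the 23282 genes of the deposited expression table of sorted mouse male germ cells. They were chosen for what their products do at an origin or a replication fork with premeiotic DNA synthesis in mind. All 44 were in the table and all 44 passed the filter on low values, a mean of at least 10 reads over the 17 libraries, as did 13530 genes in all. By role they are 9 genes of origin recognition and licensing, 12 of the replicative helicase, 6 of the sliding clamp and its loader, 9 of the polymerases, 2 that join Okazaki fragments, 3 of nucleotide supply and 3 of replication protein A (RPA).

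The study asked what NAT10, the enzyme that places N4-acetylcytidine on RNA, does in spermatogenesis. Germ cells of C57BL/6 mice were sorted by flow cytometry on Hoechst and propidium iodide into 3 stages, namely SPG (spermatogonia), PreL (spermatocytes before leptotene) and LZ (leptotene with zygotene), and were sequenced with a polyA-based protocol for small amounts of RNA. WT samples were compared with Nat10-SKO, from Nat10 fl/-;Stra8-Cre males. The knocked-in Stra8-GFPCre driver removes the floxed exons 4 and 5 of Nat10 in germ cells that express it. The other allele is written as null (-) and not as floxed. Both genotypes share the strain and the sorting. The groups held 3 WT and 3 SKO libraries at SPG, 3 and 3 at PreL, and 2 WT and 3 SKO at LZ. The age of the sorted males was not given in the sources used here, and the labels say only that the libraries are separate samples, so p-values measure the spread between these samples.

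A replication origin is licensed when the origin recognition complex (ORC), Cdc6 and Cdt1 load the ring-shaped MCM helicase, and geminin (Gmnn) blocks Cdt1 so that no origin is licensed again. Cdc45 and the GINS complex then complete the active helicase, polymerase alpha and primase lay down primers, replication factor C (RFC) loads the PCNA clamp, and polymerases delta and epsilon extend the strands. Spermatogonia replicate before each mitosis, pre-leptotene spermatocytes pass through premeiotic S phase, and in leptotene and zygotene the same cells repair programmed breaks with part of this machinery, RPA among it.

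Many replication genes carry letters that the E2F transcription factors can bind close to their start. Promoter windows of 300 bases (250 before to 50 after the start, RefSeq, GRCm38.p6) were found for 36 of the 44 genes. Gmnn, Mcm4, Gins1, Gins2, Gins4, Rfc2, Prim2 and Pole are named only. The letters TTTGGCGC, TTTCCCGC, TTTCGCGC or TTTGCCGC on either strand, overlaps allowed, stood in 15 of the 36 (41.7%) and in 2.6% of all 27025 genes with a window. The letters CCAAT stood in 23 (63.9%, against 41.1% of all genes), and CNCCTCAG, the letters of the meiotic entry factors STRA8 and MEIOSIN, in 2, Mcm6 and Gins3 (5.6%, against 9.1%). The 250 bases before the start are printed for 3 genes whose windows lie outside the annotated gene, to show how these letters sit, with the E2F letters in capitals. They are Mcm5 (chr8:75109259-75109508, plus strand), Mcm6 (chr1:128359706-128359955, minus strand) and Pola1 (chrX:93632156-93632405, minus strand), each 5′ to 3′ along its gene.
Mcm5: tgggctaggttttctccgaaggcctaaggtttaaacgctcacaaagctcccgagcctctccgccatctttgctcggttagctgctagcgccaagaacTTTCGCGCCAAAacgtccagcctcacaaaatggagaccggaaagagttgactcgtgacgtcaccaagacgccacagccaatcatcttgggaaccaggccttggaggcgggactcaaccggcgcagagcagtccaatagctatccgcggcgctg
Mcm6: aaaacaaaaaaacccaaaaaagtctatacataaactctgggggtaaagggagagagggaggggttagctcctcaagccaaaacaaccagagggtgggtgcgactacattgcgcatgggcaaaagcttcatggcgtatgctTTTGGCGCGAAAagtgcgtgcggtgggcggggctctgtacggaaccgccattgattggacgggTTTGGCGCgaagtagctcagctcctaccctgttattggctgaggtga
Pola1: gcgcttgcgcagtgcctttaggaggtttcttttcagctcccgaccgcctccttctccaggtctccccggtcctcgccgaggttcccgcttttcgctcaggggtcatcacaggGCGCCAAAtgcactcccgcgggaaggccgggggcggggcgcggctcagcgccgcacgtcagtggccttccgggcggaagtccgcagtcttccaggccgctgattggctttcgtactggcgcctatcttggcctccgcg
In Mcm5 overlapping matches on both strands begin 153 and 149 bases before the start, in Mcm6 at 110, 106 and 47 bases, and in Pola1 at 138 bases. A match is a description of the letters and not evidence of binding.

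Depth was 9885136 to 13820953 reads in 14 libraries and 5812380 to 7609420 in the 3 SKO LZ libraries, in which the 10 most abundant genes held 8.31% to 11.3% of the reads against 3.66% to 5.81% elsewhere. Values below are the deposited ERCC-calibrated values divided by 1 size factor per library (rescaled units), on which 1 read was worth 1.41 to 2.22 units, and 3.54 to 5.45 units in SKO LZ. A log2 fold change is on the scale of log2(rescaled value + 10). On the deposited calibrated scale itself the median of all genes tested moved between SKO and WT by -0.26 at SPG, 0.72 at PreL and -0.20 at LZ, and by 1.80 from PreL to LZ in WT and 0.76 in SKO. Changes below are relative to the other genes. Nat10 had 485, 350 and 446 reads in WT SPG against 159, 197 and 269 in SKO SPG, 377, 385 and 248 against 168, 160 and 114 at PreL, and 388 and 391 against 45, 52 and 61 at LZ (log2 fold changes -0.87, -1.30 and -1.44, limma adjusted p = 0.0177, 0.000752 and 0.00014).

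The sorts also differed in cell content. Late spermatocyte markers (6 genes) summed to 2907 and 5195 RPM (reads scaled to the library total) in WT LZ and 25.6 to 29.2 in SKO LZ, and spermatid markers (6 genes) to 96.7 to 947 over all WT libraries and 3.64 to 13.0 over all SKO libraries, with Acrv1 at 0 in SKO SPG and SKO LZ. Leydig markers (5 genes) summed to 5.52 to 47.6 in WT and 37.3 to 364 in SKO, and peritubular myoid markers (4 genes) to 0.777 to 4.32 in WT SPG against 33.7 to 64.5 in SKO SPG. Sertoli markers (5 genes) summed to 171, 198 and 19.5 in SKO PreL replicates 1, 2 and 3 against 13.5 to 15.2 in WT PreL. Undifferentiated spermatogonia markers went against the labels, at 10.7 to 25.8 in SPG and 50.2 to 108 in LZ, while pre-leptotene markers (5 genes) already summed to 2176 to 2458 in WT SPG and 3173 to 3451 in SKO SPG. At PreL their sums were 3538 to 4213 in WT and 4688 to 6594 in SKO, also without overlap. In bulk sorted cells, fewer cells of a type and less RNA per cell cannot be told apart, and the part of the marker differences in the results below was not tested.

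As a share of reads, the summed level of all the replication genes in WT was highest at PreL, though not that of each role. The helicase genes went the other way, at 1783 to 1823 RPM in WT SPG and 1523 to 1676 in WT PreL. The clamp and its loader stood at 1413 to 1542 in WT SPG and 1787 to 2052 in WT PreL. The 44 genes together held 7003 to 7345 RPM in SPG, 7612 to 8646 in PreL, and 5161 and 4865 in LZ. Of the 44, 24 had their highest rescaled mean in PreL against 13 in SPG and 7 in LZ. The same count was not made over all genes, so it is a description and does not set the members apart. On the deposited calibrated scale all 44 were higher in WT LZ than in WT PreL (median log2 fold change 0.93, against 1.80 over all genes). As RPKM (here RPM per kilobase of the longest annotated transcript), the level of Pcna, the sliding clamp, led WT PreL at 599.6 ± 39.4 (SD, n = 3). Gmnn at 382 ± 12, Rpa3, the smallest RPA subunit, at 374 ± 18.4 and Rfc4, a clamp loader subunit, at 367 ± 41.5 followed and did not differ beyond their spread. Gins3 at 11.96 ± 0.70, Mcm10, which helps to activate the helicase, at 5.83 ± 1.44 and Pola1, the catalytic subunit of polymerase alpha, at 3.65 ± 1.24 were the lowest.

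**Figure D1:**
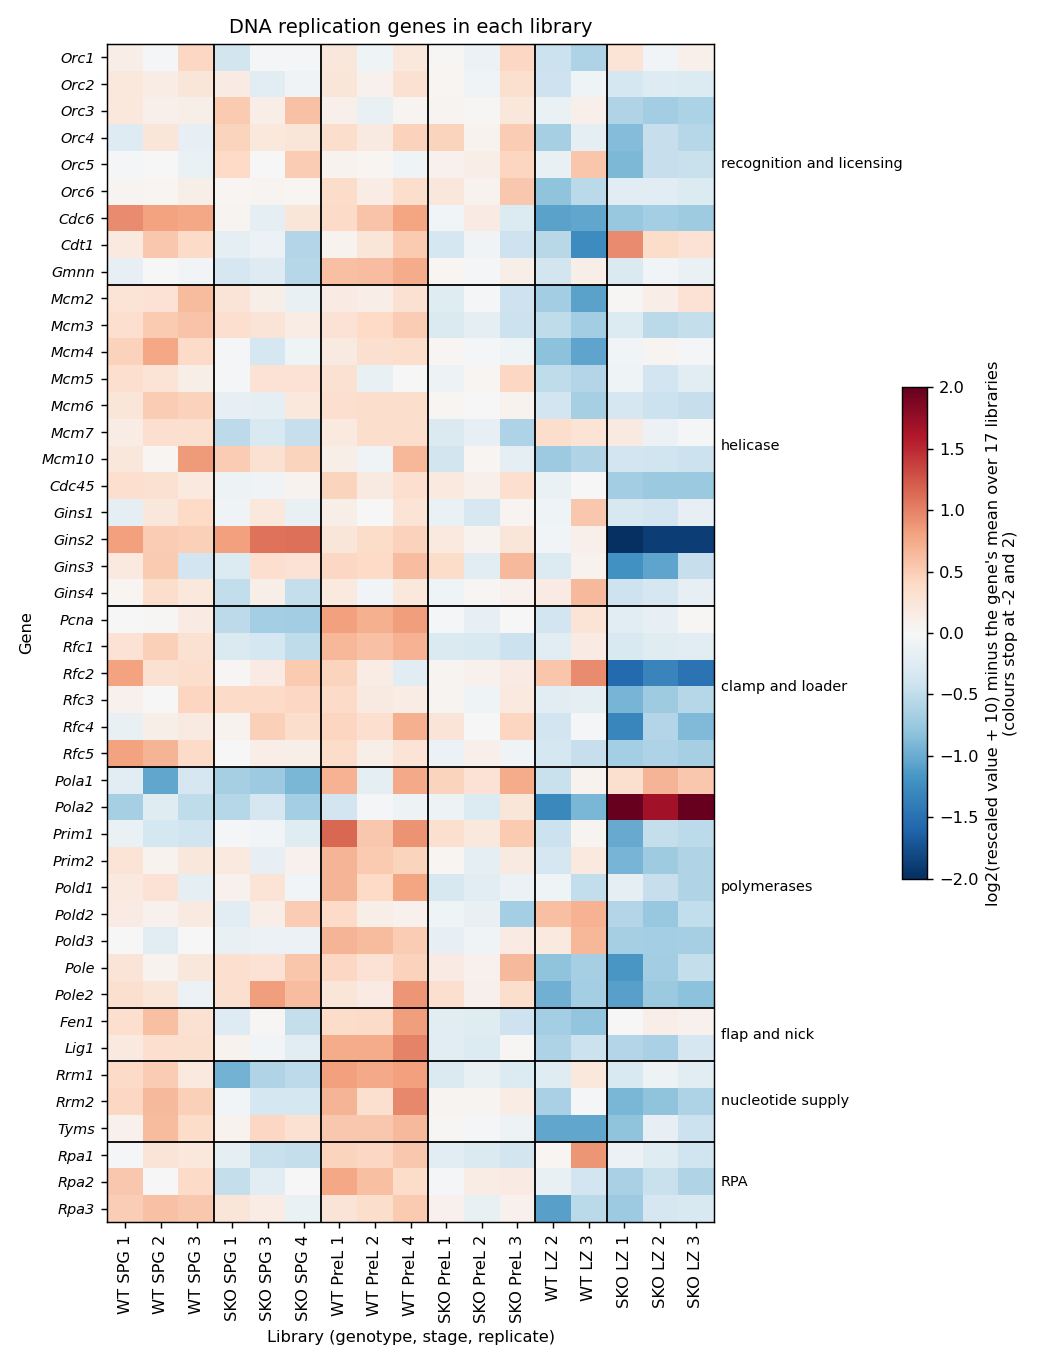
Rescaled values of the 44 replication genes (rows, by role) in the 17 libraries (columns, by genotype and stage), each gene as its log2 difference from its own mean over the libraries. In WT 24 of the genes have their highest mean in PreL (not counted over all genes), and in SKO LZ Pola2 lies far above and Gins2 and Rfc2 far below their other libraries. The fall from PreL to LZ holds relative to the other genes and turns on the deposited calibrated scale.

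From SPG to PreL in WT, 7 of the 44 genes rose with a limma adjusted p under 0.05 and 0 fell. Of all genes tested, 6.3% rose and 4.32% fell by that rule. At an absolute log2 fold change above 1 as well, 1 member was called higher and 0 lower, against 3.57% and 1.76% of all genes. At an unadjusted p under 0.05 in limma 1 gene was lower, and edgeR and DESeq2 called 0 lower. The called gene was Prim1, the catalytic subunit of primase, with 3031, 2613 and 2521 units in WT SPG and 7350, 4827 and 6186 in WT PreL. The groups did not overlap (log2 fold change 1.15 ± 0.17 SE, limma adjusted p = 0.000725). The others were Pola1 (0.96), Gmnn (0.73), Pcna (0.73), Pold3, an accessory subunit of polymerase delta (0.68), Lig1, the ligase that seals Okazaki fragments (0.54), and Rrm1, the large subunit of ribonucleotide reductase (0.44). None of the 9 licensing genes other than Gmnn and none of the 12 helicase genes passed the test, and their changes ranged from -0.27 (Cdc6) to 0.39 (Orc4) in the first group and from -0.25 (Mcm4) to 0.37 (Gins3) in the second.

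From PreL to LZ in WT, relative to the other genes, 32 of the 44 fell and 1 rose with an adjusted p under 0.05, against 17.0% and 27.2% of all genes tested, and all 32 have the opposite sign on the deposited calibrated scale. The median over the members was -0.76 and over all genes 0.22, and on the calibrated scale 0.93 and 1.80. 11 genes passed the fold threshold in the lower direction and 0 in the higher, against 6.65% and 22.3% of all genes. At an unadjusted p with that fold, and in edgeR and DESeq2, the higher count was also 0. The largest falls among the 44 were those of Cdc6, the loader of the MCM ring (log2 fold change -1.63 ± 0.18 SE, limma adjusted p = 7.23e-06), and Tyms, thymidylate synthase (log2 fold change -1.61 ± 0.18 SE, limma adjusted p = 7.23e-06). Cdc6 stood at 1284, 1479 and 1709 units in WT PreL and 467 and 478 in WT LZ, without overlap. The other called genes were Lig1 (-1.34), the flap endonuclease Fen1 (-1.26), Pole2 (-1.25) and Pole (-1.12) of polymerase epsilon, Mcm4 (-1.23), Rpa3 (-1.19), Cdt1 (-1.19), Mcm2 (-1.09) and Prim1 (-1.05). Cdt1 and Mcm2 fell under the fold threshold without WT LZ replicate 3 (-0.82 and -0.89), Prim1 without WT PreL replicate 1 or WT LZ replicate 2 (-0.91 and -0.81), and Rpa3 without WT LZ replicate 2 (-0.92). Rpa1, the large RPA subunit, stayed at -0.01 ± 0.19, and its WT LZ libraries at 2812 and 5043 units lay on both sides of WT PreL at 3721, 3651 and 4011. The gene that rose was Rfc2 (0.62), a small clamp loader subunit, and it no longer passed without WT PreL replicate 4 or WT LZ replicate 3, in edgeR or with only the groups compared (0 members higher in each). Lat2, which shares sequence with Rfc2 on the opposite strand, had 3.31 (limma adjusted p = 0.000298) in the same comparison. Markers of other cells moved with these changes, with 5 of 6 late spermatocyte (281 to 943 RPM in WT PreL), 4 of 4 Sertoli, 3 of 6 undifferentiated spermatogonia and 2 of 5 Leydig markers tested called higher in WT LZ.

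In SKO SPG some of the replication genes were lower than in WT SPG and none passed in the higher direction. With a limma adjusted p under 0.05, 13 of the 44 were lower and 0 higher, against 7.24% and 7.75% of all genes, and 1 was called lower and 0 higher with the fold threshold, against 3.76% and 5.15%. At an unadjusted p under 0.05, 3 genes were higher, and edgeR and DESeq2 called 0 higher. All 13 kept their sign on the calibrated scale. The median over the 44 was -0.24, with 32 negative and 12 positive, and over all genes 0.00. Beside these changes, 5 of 5 Leydig markers and 2 of 3 myoid markers tested were called higher and 5 of 6 spermatid and 3 of 6 late spermatocyte markers lower in SKO SPG. The germ cell lists also stood apart there without overlap, with cycling-cell markers (4 genes) at 843 to 876 RPM in WT and 638 to 769 in SKO, where 1 was called lower. Leptotene and zygotene markers (7 genes) summed to 2076 to 2441 against 2945 to 3184 and differentiating spermatogonia markers (6 genes) to 516 to 556 against 619 to 729, with 2 of each list and 2 of the 5 pre-leptotene markers higher at an adjusted p under 0.05. The part of these differences in the lower replication genes was not tested.

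Nucleotide supply held the called gene. Rrm1 (chr7:102441695-102469771, plus strand, GENCODE, mm10) stood at 5875, 6449 and 5182 units in WT SPG and 2331, 2970 and 3145 in SKO SPG. Every SKO library lay below every WT library (log2 fold change -1.06 ± 0.14 SE, limma adjusted p = 5.87e-05), although the fold fell under the threshold without WT SPG replicate 2 (-0.98) or SKO SPG replicate 1 (-0.93). Rrm2, the small subunit of the same enzyme, stood at 4574, 5381 and 4800 against 3312, 2695 and 2708, also without overlap (log2 fold change -0.76 ± 0.17 SE, limma adjusted p = 0.00471). Tyms overlapped between the groups (log2 fold change -0.10 ± 0.16 SE, limma adjusted p = 0.733).

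Among the licensing genes at SPG, Cdc6 fell from 1917, 1735 and 1703 units to 1031, 872 and 1170 (log2 fold change -0.80 ± 0.16 SE, limma adjusted p = 0.00245) and Cdt1 from 1083, 1383 and 1244 to 835, 869 and 627 (log2 fold change -0.67 ± 0.22 SE, limma adjusted p = 0.0433). In both genes the SKO libraries lay below the WT libraries. The 6 ORC genes did not pass, from -0.32 (Orc1) to 0.37 (Orc5), with Orc6 at -0.03 ± 0.12, and Gmnn had -0.32 (adjusted p = 0.111). In the helicase Mcm7 (log2 fold change -0.70 ± 0.13 SE, limma adjusted p = 0.00165), Mcm4 (log2 fold change -0.69 ± 0.13 SE, limma adjusted p = 0.00124) and Mcm6 (log2 fold change -0.45 ± 0.12 SE, limma adjusted p = 0.0196) fell. Of the sequence of Mcm7, 34.2% of 50-base words also stand in Gm5487, Ap4m1 or Cops6. Mcm2 (-0.32), Mcm5 (-0.07), Mcm10 (0.05) and Cdc45 (-0.31) did not pass. Nor did the 4 GINS genes, from -0.48 (Gins4) to 0.40 (Gins2), with Gins1 at -0.14.

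At the fork, Rfc1, the large clamp loader subunit, fell at SPG from 4668, 5286 and 4696 units to 3112, 2999 and 2685 (log2 fold change -0.73 ± 0.12 SE, limma adjusted p = 0.000404). Pcna (log2 fold change -0.68 ± 0.14 SE, limma adjusted p = 0.0025) and Rfc5 (log2 fold change -0.55 ± 0.14 SE, limma adjusted p = 0.014) fell as well, and Rfc3, another small clamp loader subunit, had 0.22. In these 3 lower genes the SKO libraries lay below the WT libraries, though 31.8% of the 50-base words of Pcna also stand in the pseudogene Pcna-ps2. None of the 9 polymerase genes passed, and the largest difference was 0.45 for Pole2 (adjusted p = 0.161), with Pold1, the catalytic subunit of polymerase delta, at 0.00 ± 0.17, Pola1 at -0.23 and Pole at 0.20. Fen1 fell (log2 fold change -0.65 ± 0.16 SE, limma adjusted p = 0.00876), with 81.2% of its 50-base words shared with Gm10143 or Tmem258, while Lig1 at -0.35 did not pass (adjusted p = 0.0733). Rpa2 (log2 fold change -0.54 ± 0.15 SE, limma adjusted p = 0.0226) and Rpa1 (log2 fold change -0.52 ± 0.17 SE, limma adjusted p = 0.0427) fell and Rpa3 had -0.45 (adjusted p = 0.051).

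**Figure D2:**
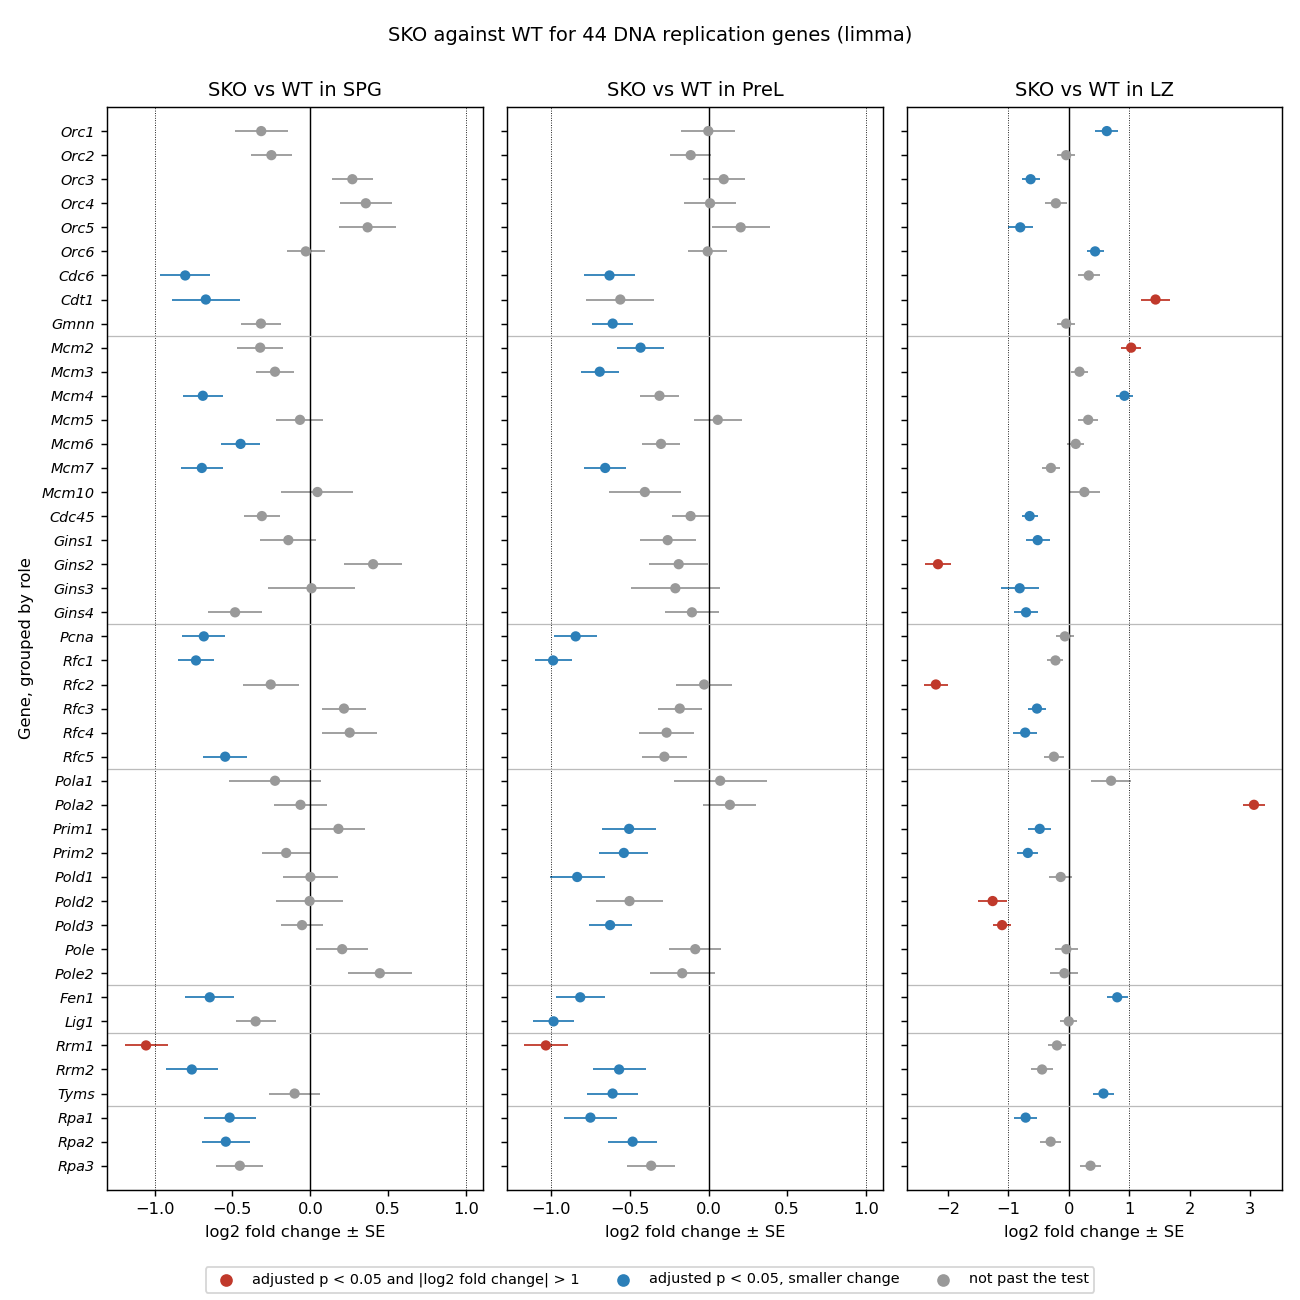
Log2 fold changes of SKO against WT (x axis, bars ± SE) for the 44 genes, by role, at SPG, PreL and LZ. At SPG and PreL the points that pass the test all lie left of 0, and at LZ Pola2 (3.06) lies far right and Rfc2 (-2.20) and Gins2 (-2.16) far left. On the deposited calibrated scale 11 of the 18 genes passing at PreL change sign and none of those passing at SPG or LZ.

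At PreL, the stage of premeiotic S phase, 18 of the 44 were lower in SKO with an adjusted p under 0.05 and 0 higher, against 10.8% and 9.16% of all genes, and on the deposited calibrated scale 11 of these 18 have the opposite sign. With the fold threshold 1 was called lower and 0 higher, against 6.03% and 6.26%. No gene was higher at an unadjusted p under 0.05 or in edgeR or DESeq2 (0 each). The median over the 44 was -0.34, with 38 negative and 6 positive, against 0.02 over all genes, and on the calibrated scale it was 0.39 against 0.72. On that scale 0 of the 44 passed lower and 16 passed higher. With the fold threshold 0 of the 44 were called either way there, against 3696 of the 13530 genes higher and 658 lower. Fen1, Lig1, Pcna, Pold1, Rfc1, Rpa1 and Rrm1 kept a negative sign there, from -0.02 (Rpa1) to -0.30 (Rrm1), and none of these passed. Without SKO PreL replicates 1 and 2, the libraries with high Sertoli and Leydig sums, 8 genes passed lower, a choice made after seeing the data that leaves 1 SKO PreL library, assumed to vary like the other groups. In SKO PreL 5 of 5 Leydig and 4 of 4 Sertoli markers tested were called higher, and 6 of 6 late spermatocyte and 5 of 6 spermatid markers lower. At an adjusted p under 0.05, 2 of 6 undifferentiated spermatogonia markers tested were higher and 0 lower, and 2 of 6 differentiating markers higher and 1 lower. Of 5 pre-leptotene and of 4 cycling-cell markers 1 was higher and 1 lower in each list, and of 7 leptotene and zygotene markers 1 was higher and 0 lower. The part of these differences in the lower replication genes was not tested.

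Rrm1 was again the called gene, with 7982, 7676 and 7952 units in WT PreL and 3705, 4087 and 3725 in SKO PreL. The groups lay far apart relative to their spread (log2 fold change -1.04 ± 0.14 SE, limma adjusted p = 4.73e-05), and the fold fell to -0.99 under TMM scaling and -0.30 on the calibrated scale. Rrm2 (log2 fold change -0.57 ± 0.17 SE, limma adjusted p = 0.0222) and Tyms (log2 fold change -0.61 ± 0.16 SE, limma adjusted p = 0.0123) were lower too on the rescaled values, and both had the opposite sign on the calibrated scale.

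Lig1 and Rfc1 lay just under the fold threshold at PreL. Lig1 stood at 7607, 7610 and 9069 units in WT and 3875, 3773 and 4607 in SKO (log2 fold change -0.99 ± 0.13 SE, limma adjusted p = 3.57e-05). Rfc1 stood at 6032, 5748 and 6166 against 3120, 3094 and 2819 (log2 fold change -0.99 ± 0.12 SE, limma adjusted p = 1.38e-05). In both genes every SKO library was below every WT library by a wide gap. Pcna, at 20810, 19410 and 21010 against 11660, 10570 and 11860, did not overlap either (log2 fold change -0.85 ± 0.14 SE, limma adjusted p = 0.000339). Fen1 had log2 fold change -0.82 ± 0.16 SE, limma adjusted p = 0.00121, and Rfc3 at -0.18 did not pass.

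Among the polymerases at PreL, Pold1 fell from 1977, 1631 and 2140 units to 991, 1068 and 1133 (log2 fold change -0.84 ± 0.17 SE, limma adjusted p = 0.00239), without overlap. Pold3 (log2 fold change -0.63 ± 0.14 SE, limma adjusted p = 0.00345), Prim2, the large primase subunit (log2 fold change -0.54 ± 0.16 SE, limma adjusted p = 0.0196), and Prim1 (log2 fold change -0.51 ± 0.17 SE, limma adjusted p = 0.0458) were lower on the rescaled values and had the opposite sign on the calibrated scale. Pola1 (0.07), Pola2 (0.14), Pole (-0.08), Pole2 (-0.17) and Pold2 (-0.50) did not pass. In the helicase Mcm3 (log2 fold change -0.69 ± 0.12 SE, limma adjusted p = 0.000627), Mcm7 (log2 fold change -0.66 ± 0.13 SE, limma adjusted p = 0.00202) and Mcm2 (log2 fold change -0.43 ± 0.15 SE, limma adjusted p = 0.046) were lower, again with the opposite sign on the calibrated scale. Mcm5 (0.06), Mcm10 (-0.41), Cdc45 (-0.11) and Gins1 (-0.26) did not pass. In licensing, Cdc6 (log2 fold change -0.63 ± 0.16 SE, limma adjusted p = 0.0102) and Gmnn (log2 fold change -0.61 ± 0.13 SE, limma adjusted p = 0.00296) were lower with the same turn, Cdt1 had -0.56 (adjusted p = 0.076), and Orc1 (0.00) and Orc6 (-0.01) were near 0. Rpa1 (log2 fold change -0.75 ± 0.17 SE, limma adjusted p = 0.00385) and Rpa2 (log2 fold change -0.48 ± 0.15 SE, limma adjusted p = 0.0321) were lower on the rescaled values, though Rpa1 was at -0.02 on the calibrated scale and Rpa2 changed sign there, and Rpa3 had -0.37.

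**Figure D3:**
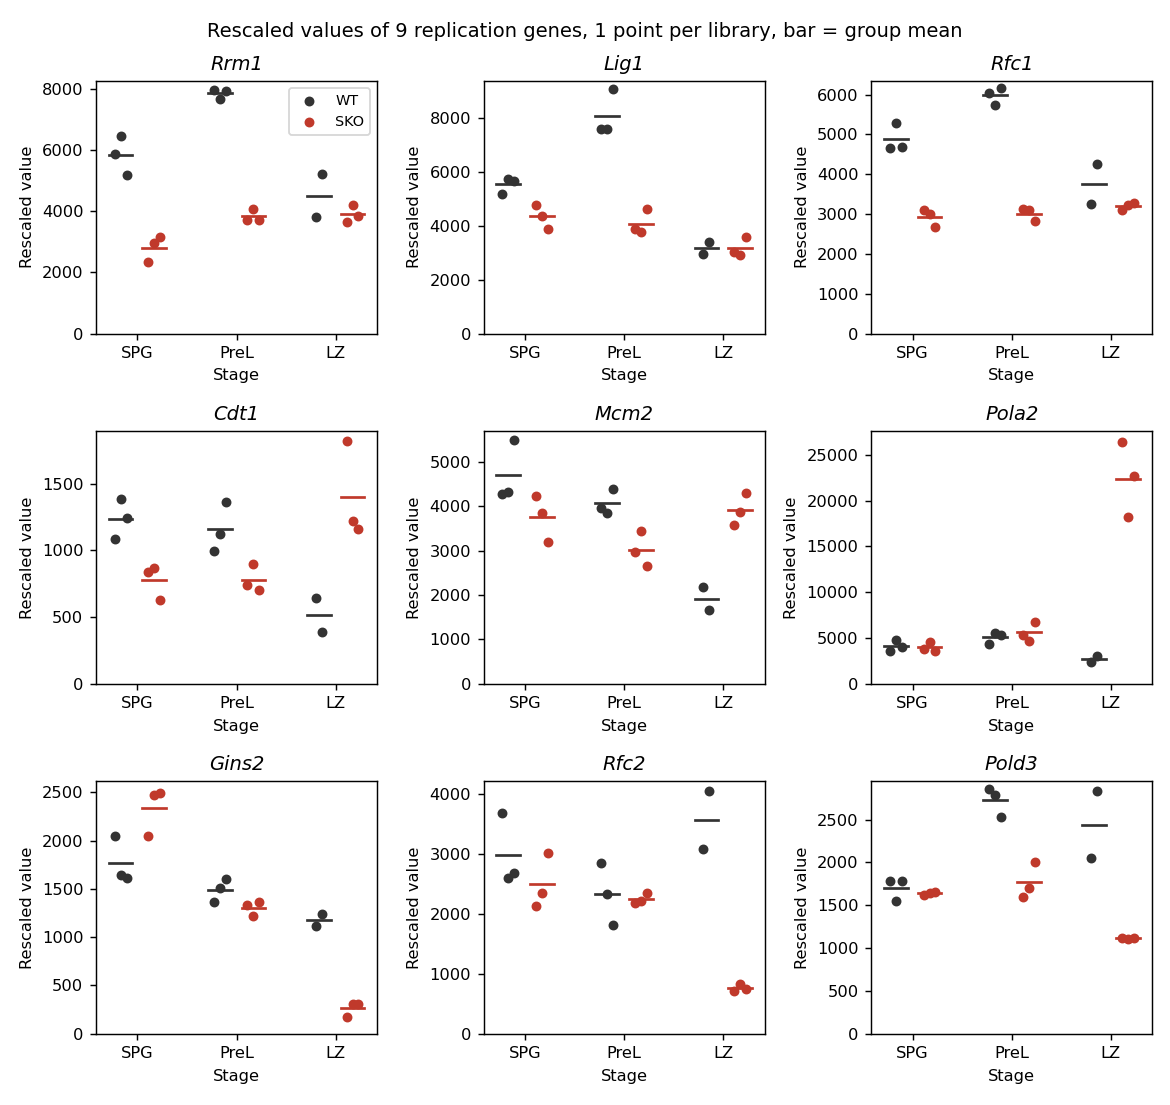
Rescaled values (y axis, from 0) of 9 replication genes by stage (x axis) and genotype, with 1 point per library and a bar for each group mean. Rrm1, Lig1 and Rfc1 in SKO sit below WT at PreL on this scale, while on the calibrated scale Rrm1 (-0.30), Lig1 (-0.26) and Rfc1 (-0.26) keep the sign and do not pass. At LZ Cdt1, Mcm2 and Pola2 in SKO sit above WT and Gins2, Rfc2 and Pold3 below it, on both scales.

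The genotype effects at SPG and PreL did not differ for any of the 44 genes at an adjusted p under 0.05 in limma (0 in each direction, against 0.111% lower and 0.251% higher of all genes). At an unadjusted p under 0.05, 8 were more negative and 1 more positive at PreL, edgeR called 0 and DESeq2 called 1 more negative. On the rescaled values, that the lower genes numbered 13 at SPG and 18 at PreL is therefore no shown difference between the stages. On the calibrated scale the genotype effect was more positive at PreL than at SPG in 30 of the 44 genes, and in 5938 of the 13530 genes tested. In SKO from SPG to PreL on the rescaled values, 2 genes fell and 4 rose, against 3.44% and 4.89% of all genes. Both that fell turn on the calibrated scale, where 41 rose. With the fold threshold 23 of the 44 were called higher on that scale, and 6049 of the 13530 genes tested. On the rescaled values the count that rose was 0 to 2 when any 1 library of these groups was left out, and 0 without SKO PreL replicate 1. The genes that fell were Gins2 (-0.83) and Mcm3 (-0.55), and those that rose were Pola1, Pcna, Rrm1 and Gmnn. With the fold threshold 0 fell, also at an unadjusted p and in edgeR and DESeq2, and 1 rose, Pola1 (log2 fold change 1.26 ± 0.30 SE, limma adjusted p = 0.0138), against 0.939% and 3.06% of all genes. The Pola1 call was lost without SKO PreL replicate 1 (limma adjusted p = 0.0541).

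At LZ the genes went both ways. With an adjusted p under 0.05, 15 of the 44 were lower and 8 higher in SKO, against 29.7% and 20.6% of all genes, so the share among the members was near or below that of all genes, and 4 were called lower and 3 higher with the fold threshold, against 22.7% and 12.5%. None of these 23 changed sign on the calibrated scale, under TMM or when libraries were scaled by total reads. The median over the 44 was -0.16 and over all genes -0.06, and scaled by total reads -0.55 and -0.43. Without WT LZ replicate 3, which leaves 1 WT LZ library assumed to vary like the other groups, only 7 genes passed in the lower direction, and the median over the 44 was -0.02 against -0.08 over all genes.

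Pola2 (chr19:5940542-5964202, minus strand, GENCODE, mm10), the B subunit of the polymerase alpha and primase complex, rose most of the 44. It stood at 2322 and 3002 units in WT LZ and 26390, 18180 and 22660 in SKO LZ, from 4846 to 5423 reads in the shallower SKO libraries. The lowest SKO library lay several times above the highest WT library (log2 fold change 3.06 ± 0.19 SE, limma adjusted p = 3.13e-10). Per kilobase of the longest transcript, Pola2 had the highest mean of the 44 in SKO LZ (265 ± 28.2 RPKM, SD, n = 3), though Pcna at 248 ± 30.5 did not differ from it beyond their spread. This order depends on the length used. The longest transcript of Pola2 has 2878 bases and all its exons together 8294, against 1518 and 2400 for Pcna. Of the partners of Pola2 in the complex, Pola1 had 0.70 (limma adjusted p = 0.0861), and Prim1 (log2 fold change -0.48 ± 0.19 SE, limma adjusted p = 0.0459) and Prim2 (log2 fold change -0.68 ± 0.17 SE, limma adjusted p = 0.00289) were lower.

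Licensing and helicase genes at LZ went both ways, with 2 of 9 and 5 of 12 lower and 3 and 2 higher (medians -0.04 and -0.09). Cdt1 stood at 644 and 389 units in WT LZ and 1824, 1221 and 1158 in SKO LZ (log2 fold change 1.44 ± 0.24 SE, limma adjusted p = 6.17e-05), without overlap. Mcm2 stood at 2173 and 1669 against 3573, 3884 and 4305 (log2 fold change 1.03 ± 0.17 SE, limma adjusted p = 3.54e-05), and its fold fell under the threshold without WT LZ replicate 3 (0.83) or SKO LZ replicate 3 (0.97) and on the calibrated scale (0.89). Mcm4 (log2 fold change 0.92 ± 0.14 SE, limma adjusted p = 2.29e-05), Orc1 (log2 fold change 0.63 ± 0.19 SE, limma adjusted p = 0.00964) and Orc6 (log2 fold change 0.44 ± 0.14 SE, limma adjusted p = 0.013) also rose, and so did Fen1 (log2 fold change 0.80 ± 0.17 SE, limma adjusted p = 0.000727) and Tyms (log2 fold change 0.57 ± 0.18 SE, limma adjusted p = 0.0122). Cdc6 (0.33), Gmnn (-0.04), Mcm5 (0.32) and Mcm10 (0.26) did not pass.

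The 4 GINS genes and Cdc45, the partners of the MCM ring in the active helicase, were all lower at LZ. Gins2 (chr8:120578633-120589304, minus strand) stood at 1111 and 1240 units in WT and 174, 308 and 305 in SKO, from 32 to 87 reads there. The groups were well separated (log2 fold change -2.16 ± 0.21 SE, limma adjusted p = 7.64e-08). Per kilobase of the longest transcript, Gins2 had the lowest mean of the 44 genes in SKO LZ (2.35 ± 0.82 RPKM, SD, n = 3). Mcm10 and Pola1 did not differ from it beyond their spread. This order depends on the length used, as all exons together have 4097 bases in Gins2, 7692 in Mcm10 and 8813 in Pola1. Of the 50-base words of Gins2, 70.3% also stand in Gse1, on the opposite strand, which had a log2 fold change of 0.48 (limma adjusted p = 0.171) at LZ. Whether the counting used strand was not given in the sources used here, and without strand the reads of both genes cannot be told apart. Gins4 (log2 fold change -0.71 ± 0.19 SE, limma adjusted p = 0.00448), Gins3 (log2 fold change -0.81 ± 0.32 SE, limma adjusted p = 0.0386), Cdc45 (log2 fold change -0.65 ± 0.13 SE, limma adjusted p = 0.000384) and Gins1 (log2 fold change -0.51 ± 0.20 SE, limma adjusted p = 0.0394) passed with smaller changes. The WT LZ libraries (replicates 2 and 3) lay far apart in Gins1, at 1650 and 2530 units against 1389, 1342 and 1563 in SKO LZ. So did those of Gins4, at 1958 and 2739 against 1307, 1384 and 1567. Cdc45 stood at 2221 and 2426 against 1514, 1462 and 1463, and Gins3 at 395.2 and 509 against 201.5, 226.6 and 346.9.

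In the clamp loader Rfc2 (chr5:134581366-134601805, plus strand) stood at 3082 and 4051 units in WT LZ and 708, 836 and 748 in SKO LZ. The SKO libraries lay far below (log2 fold change -2.20 ± 0.20 SE, limma adjusted p = 3.5e-08), and 19.8% of the 50-base words of Rfc2 stand in other genes, chiefly Lat2 on the opposite strand, which had -1.87 (limma adjusted p = 0.0143). Rfc4 (log2 fold change -0.72 ± 0.20 SE, limma adjusted p = 0.00459) and Rfc3 (log2 fold change -0.53 ± 0.16 SE, limma adjusted p = 0.00849) were lower too, while Rfc1 (-0.22) and Pcna (-0.06) did not pass. Of the accessory subunits of polymerase delta, Pold2 stood at 864 and 931 against 376, 333 and 401 (log2 fold change -1.26 ± 0.24 SE, limma adjusted p = 0.000195) without overlap. Pold3 stood at 2051 and 2832 against 1122, 1108 and 1120 (log2 fold change -1.10 ± 0.15 SE, limma adjusted p = 6.94e-06), also without overlap. The fold of Pold2 was -0.64 once length and GC trends were removed, and that of Pold3 was -0.99 in edgeR and -0.89 without WT LZ replicate 3. The catalytic subunits Pold1 (-0.13) and Pole (-0.04) did not pass. Orc5 (log2 fold change -0.80 ± 0.21 SE, limma adjusted p = 0.00294) and Orc3 (log2 fold change -0.63 ± 0.15 SE, limma adjusted p = 0.00152) were lower. Rpa1 was lower (log2 fold change -0.71 ± 0.19 SE, limma adjusted p = 0.00346) with WT libraries at 2812 and 5043 units and SKO at 2516, 2319 and 2069, while Rpa3 (0.36), Lig1 (0.00), Rrm1 (-0.20) and Rrm2 (-0.44) did not pass. Beside these changes, 6 of 6 late spermatocyte markers and 6 of 6 spermatid markers were called lower and 2 of 5 Leydig markers higher in SKO LZ. At an adjusted p under 0.05, 4 of 6 differentiating spermatogonia markers were higher there and 1 lower. Of 4 cycling-cell markers 2 were higher and 0 lower, of 7 leptotene and zygotene markers 2 and 1, and of 5 pre-leptotene markers 0 and 1. The part of these marker differences in the changes at LZ was not tested.

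In SKO from PreL to LZ, 23 of the 44 fell and 3 rose relative to the other genes, against 13.5% and 12.9% of all genes, and 12 of the 23 turn on the calibrated scale. With the fold threshold 7 fell and 1 rose, against 5.05% and 8.22%. The 7 were Gins2 (-2.32), Rfc2 (-1.55), Gins3 (-1.18), Rfc4 (-1.15), Pole2 (-1.15), Pole (-1.07) and Prim1 (-1.02), and the 1 was Pola2 (log2 fold change 2.0 ± 0.17 SE, limma adjusted p = 7.14e-08). Without SKO LZ replicate 1 or SKO PreL replicate 3 some of these left the fold threshold, on the calibrated scale only Gins2 was called lower, and the count that fell was 4 to 8 over the libraries left out in turn. Cdt1 (0.81) and Mcm7 (0.37) rose as well.

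The genotype effect differed between LZ and PreL in 20 of the 44 genes at an adjusted p under 0.05. It was more negative at LZ in 5 and more positive in 15, against 23.1% and 15.1% of all genes, and 7 of the 15 turn on the calibrated scale. The 8 that kept a positive sign on that scale were Pola2 (difference in log2 fold change 2.93 ± 0.25 SE, limma adjusted p = 4.58e-08), Cdt1 (difference in log2 fold change 2.0 ± 0.33 SE, limma adjusted p = 0.000105), Fen1 (1.62), Mcm2 (1.47), Mcm4 (1.23), Tyms (1.18), Lig1 (0.99) and Cdc6 (0.96). Of these, Pola2, Cdt1 and Fen1 also passed there, and the others did not, at 0.60 for Mcm2, 0.36 for Mcm4, 0.32 for Tyms, 0.11 for Lig1 and 0.10 for Cdc6 (limma adjusted p = 0.0998, 0.31, 0.418, 0.711 and 0.832). More negative were Rfc2 (difference in log2 fold change -2.17 ± 0.27 SE, limma adjusted p = 4.38e-06), Gins2 (difference in log2 fold change -1.97 ± 0.28 SE, limma adjusted p = 2.46e-05), Orc5 (-1.01), Orc3 (-0.73) and Cdc45 (-0.53). The median difference over the 44 was 0.22 and over all genes -0.31. Some differences, those of Pold1, Gmnn and Cdc45 among them, no longer passed when a single library was left out.

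**Figure D4:**
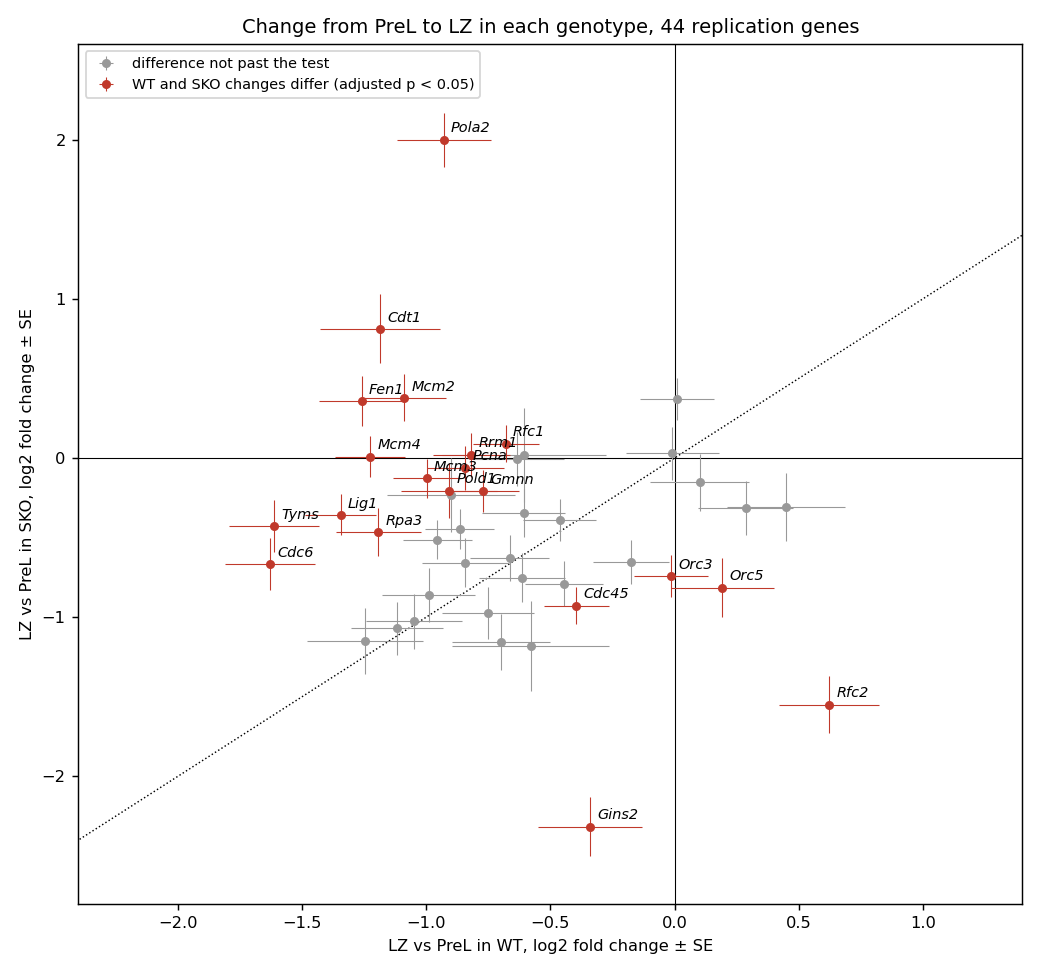
Log2 change from PreL to LZ in SKO (y axis) against that in WT (x axis) for the 44 genes, with the 20 whose change differs between the genotypes at an adjusted p under 0.05 in red. Most points lie left of 0 on the x axis on the rescaled values (all 32 that pass in WT turn on the calibrated scale), and Pola2 at 2.0 lies above the rest and Gins2 at -2.32 and Rfc2 at -1.55 below.

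Members with and without the E2F letters did not part clearly. At SPG 4 of the 15 with the letters and 8 of the 21 without were lower with an adjusted p under 0.05 (medians over each set -0.23 and -0.31), at PreL 6 and 10 (-0.30 and -0.43), and at LZ 4 and 6 were lower and 2 and 5 higher (0.00 and -0.21). These counts carry no test. Of the genes printed above, Mcm6 fell at SPG (-0.45), and Mcm5 and Pola1 passed in none of the 3 genotype comparisons.

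**Figure D5:**
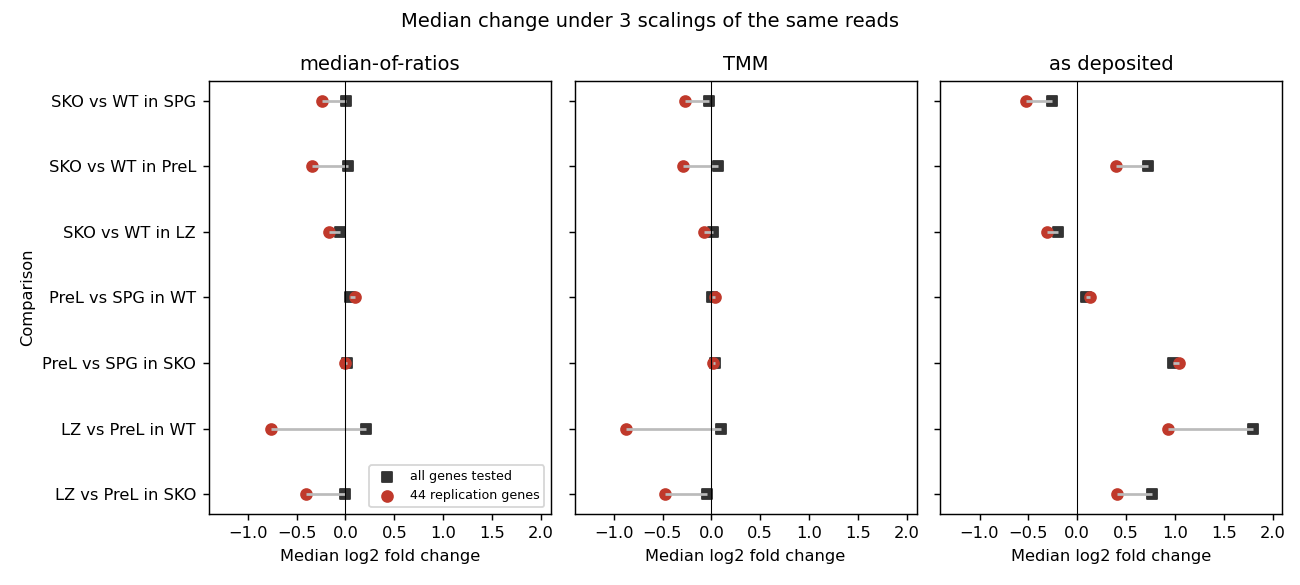
Median log2 fold change of the 44 replication genes and of all 13530 genes tested, for each comparison, under the median-of-ratios, TMM and deposited calibrated scales. Under these 3 scales the members lie below all genes in the 3 genotype comparisons (at LZ the order turns without WT LZ replicate 3, at -0.02 and -0.08 on the rescaled values), and the calibrated scale lifts both at PreL, to 0.39 and 0.72.

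Other genes of the pathway are given by counts, to be read against 7.24% lower and 7.75% higher of all genes at SPG, 10.8% and 9.16% at PreL, and 29.7% and 20.6% at LZ. Of 15 genes (16 listed) that fire origins or travel with the fork, 2 were lower and 0 higher in SKO SPG, 5 lower and 1 higher in SKO PreL, and 0 lower and 3 higher in SKO LZ with an adjusted p under 0.05. Of 9 other fork enzymes 3, 3 and 2 were lower at SPG, PreL and LZ and 0, 0 and 2 higher. Of 7 genes of replication-coupled chromatin 2, 2 and 4 were lower and 0 higher at each stage. Of 7 other genes of nucleotide supply 3, 3 and 1 were lower and 0, 1 and 1 higher. Of 16 genes of the E2F family and the S phase cyclins 7, 2 and 2 were lower and 1, 0 and 6 higher. Of the 3 meiotic relatives of MCM genes 0 were lower and 0, 0 and 1 higher.

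Named by size among those genes, E2f2 (log2 fold change -2.19 ± 0.41 SE, limma adjusted p = 0.00138), the repressor E2f7 (log2 fold change -1.57 ± 0.31 SE, limma adjusted p = 0.00219) and Uhrf1, which recruits the maintenance methyltransferase to new DNA (log2 fold change -1.20 ± 0.14 SE, limma adjusted p = 2.68e-05), were lower in SKO SPG. In SKO PreL E2f7 (log2 fold change -1.43 ± 0.31 SE, limma adjusted p = 0.0034), Chtf18 of the alternative clamp loader (log2 fold change -1.36 ± 0.22 SE, limma adjusted p = 0.000307) and the histone chaperone subunit Chaf1a (log2 fold change -1.28 ± 0.22 SE, limma adjusted p = 0.000627) were lower, and Rrm2b, the p53-inducible small subunit of ribonucleotide reductase, was higher (log2 fold change 1.14 ± 0.24 SE, limma adjusted p = 0.00245). In SKO LZ Rnaseh2a (log2 fold change -2.24 ± 0.24 SE, limma adjusted p = 2.22e-07), Chaf1a (log2 fold change -1.84 ± 0.25 SE, limma adjusted p = 5.49e-06) and the E2F partner Tfdp1 (log2 fold change -1.54 ± 0.25 SE, limma adjusted p = 4.76e-05) were lower. The WT LZ libraries of Rnaseh2a lay far apart, at 5480 ± 3020 units (SD, n = 2), against 1062 ± 123 (SD, n = 3) in SKO LZ. Higher there were Mcm8, a helicase of meiotic recombination (log2 fold change 2.59 ± 0.19 SE, limma adjusted p = 1.52e-09), Ccna2, cyclin A of S phase (log2 fold change 1.51 ± 0.14 SE, limma adjusted p = 5.52e-08), and E2f3 (log2 fold change 1.14 ± 0.25 SE, limma adjusted p = 0.000892).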

How the data were processed

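RNA of 17 sorted germ cell samples was sequenced in paired-end mode. Per the labels and the study's methods, the authors aligned reads with TopHat2 2.1.1 to mm10 (the submitters' notes list mm9 as well as mm10), used Cufflinks 2.2.1, counted genes with HTSeq 0.11.2, and multiplied each library by 1 factor from ERCC spike-ins and cell input. The deposited values are therefore a calibrated signal, not raw counts. Dividing each library by its step gave whole reads for 100% of the values (tolerance 0.05), and these recovered read counts of the deposited table served for depth, the filter, edgeR and DESeq2. The strand setting and annotation of the counting were not given in the sources used here. PCR reads without molecular identifiers are not independent molecules.

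Deposited values were rescaled by median-of-ratios size factors over all libraries, genes averaging 10 reads or more were kept, and log2(value + 10) was fitted by group means in limma 3.58.1 with a mean-variance trend (R 4.3.3), with Benjamini-Hochberg adjustment over the 13530 genes tested. A gene passed at an adjusted p under 0.05 and was called with an absolute log2 fold change above 1 as well, and differences of genotype effects needed the adjusted p alone. Alternatives were the calibrated scale, TMM, edgeR 4.0.16, DESeq2 1.42.0, other pseudocounts and filters, removal of length and GC trends, a replicate block, only the groups compared, and leaving out each library. The fit was tested on simulated data. Genes were located and shared 50-base words counted in GENCODE vM21 transcripts, matching 20857 symbols directly and 1940 by older symbols, and 485 not at all.

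Named genes were role representatives, every member called in a genotype comparison or differing between LZ and PreL, and the largest change per role and stage. Genes of other pathway lists were named when called with a mean of at least 100 reads, at most 3 in each direction and stage. Other members were named after their values were seen. The members, the lists and the naming rule were chosen with earlier results of these data known. Over all libraries, marker lists not given in full in the report summed as follows: differentiating spermatogonia (409 to 729 RPM), leptotene and zygotene (1601 to 4143), macrophage (0.651 to 45.0), endothelial (0.187 to 5.46) and cycling cells (638 to 1617).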

Additional observations from a re-analysis of the deposited data

Results flagged for a closer look

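For 20 genes the effect of SKO against WT differed between LZ and PreL at a limma adjusted p under 0.05, in log2 units as LZ minus PreL. In origin licensing these were Cdt1 (2.0), Cdc6 (0.96), Gmnn (0.57), Orc3 (-0.73) and Orc5 (-1.01). In the helicase they were Mcm2 (1.47), Mcm4 (1.23), Mcm3 (0.87), Cdc45 (-0.53) and Gins2 (-1.97). At the clamp and its loader they were Pcna (0.78), Rfc1 (0.77) and Rfc2 (-2.17), and among the polymerases Pola2 (2.93) and Pold1 (0.70). Fen1 (1.62) and Lig1 (0.99), Rrm1 (0.84) and Tyms (1.18), and Rpa3 (0.73) were the others. Of all genes tested, 23.1% had a more negative and 15.1% a more positive difference. Pold1 no longer passed without WT PreL replicate 1 (0.68, limma adjusted p = 0.0699), nor Gmnn without WT PreL replicate 4 (0.52, limma adjusted p = 0.0619). Cdc45 no longer passed without WT PreL replicate 2 (-0.47, limma adjusted p = 0.0551). With 1 WT LZ library left, Pcna and Rpa3 were at 0.45 without replicate 2, and Orc5 at -0.68 without replicate 3. The causes of the differences were not tested.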

How the results depend on the processing

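Over the 9 results for single genes called between genotypes at 1 stage, none changed direction, and 137 of 147 recomputed values stayed on the same side of both thresholds. The calibrated scale moved most counts. On it SKO against WT had 4 called lower and 21 lower at any fold at SPG, 0 called lower, 0 lower and 16 higher at PreL, and 5 higher at LZ. From SPG to PreL in SKO it gave 0 lower, 23 called higher and 41 higher. From PreL to LZ it gave in WT 0 called lower, 0 lower, 20 called higher and 37 higher, and in SKO 1 called lower, 2 lower, 5 called higher and 20 higher. The genotype effect was then more positive at PreL than at SPG in 30 genes, and at LZ against PreL more negative in 21 and more positive in 3. Of the 13530 genes, that scale called 705, 658 and 3502 lower in SKO at SPG, PreL and LZ and 407, 3696 and 1534 higher. From SPG to PreL in SKO it called 28 lower and 6049 higher. From PreL to LZ it called 22 lower and 10784 higher in WT, and 170 and 4394 in SKO. The genotype effect over all genes was more positive at PreL than at SPG in 5938 and more negative in 147. At LZ against PreL it was more negative in 6575 and more positive in 749. Signs that turned on that scale were, from PreL to LZ in WT, Cdc6 (0.0426), Cdt1 (0.48), Fen1 (0.42), Lig1 (0.35), Mcm2 (0.60), Mcm4 (0.46), Pole (0.57), Pole2 (0.42), Prim1 (0.64), Rpa3 (0.50) and Tyms (0.0708), and in the difference of genotype effects, LZ minus PreL, Gmnn (-0.31), Mcm3 (-0.00052), Pcna (-0.0913), Pold1 (-0.17), Rfc1 (-0.10), Rpa3 (-0.15) and Rrm1 (-0.0330). A common shift of all genes, given in the report, is built into that scale.

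Without a fold threshold the called counts became 13 lower at SPG, 18 lower at PreL, 15 lower and 8 higher at LZ, 7 higher from SPG to PreL in WT, 2 lower and 4 higher in SKO, 32 lower and 1 higher from PreL to LZ in WT, and 23 lower and 3 higher in SKO. The count called lower at PreL was 0 with TMM, 2 in edgeR and with length and GC trends removed, and 2 without SKO PreL replicates 1 and 2, where 8 were lower at any fold and 0 genes were lower, higher or called higher from SPG to PreL in SKO (this removal was chosen after seeing the data). From PreL to LZ in WT, the count called lower was 19 in edgeR, 19 with length and GC trends removed and 18 with only the groups compared, and 0 rose at any fold in edgeR and with only the groups compared. From SPG to PreL, DESeq2 called 2 higher in WT, and in SKO 2 rose with no low-value filter or only the groups compared, and 4 fell and 2 rose with length and GC trends removed. DESeq2 found 1 gene more negative at PreL than at SPG between genotypes. The cause of these moves was not tested.

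With the replicate number as a block, 3 genes were called lower at PreL and 2 rose from SPG to PreL in SKO. Same-numbered samples correlated between -0.19 and 0.13 after group means were removed. With 2 or 3 libraries per group this cannot show whether a number marks a shared animal or sort, and the labels do not say. Every other call of a named gene but the difference of Pold1 (0.64, limma adjusted p = 0.0954) kept its side under the replicate block.

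Leaving out each library in turn gave 0 to 1 called lower at SPG, 1 to 3 at PreL and 3 to 6 lower and 2 to 4 higher at LZ, with 9 to 11, 13 to 17 and 7 to 19 lower at any fold. It gave 1 to 2 called higher and 4 to 6 higher from SPG to PreL in WT, and 0 to 1 and 0 to 2 in SKO. It gave 11 to 15 called lower and 0 to 1 higher from PreL to LZ in WT, 4 to 8 called lower and 1 to 4 higher in SKO, and 3 to 7 more negative and 13 to 17 more positive differences of genotype effects. Depth limits SKO LZ most, where Gins2 rested on 32 to 87 reads.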
